A study of Drosophila melanogaster with 6 samples.

Results

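The control libraries of an RNA-seq experiment on larval dopamine neurons were used to describe which genes these neurons express, and they make up 3 of the 6 libraries of the series. They were chosen by their genotype label (WT, titled Control), and no value from the 3 Stromalin KD libraries was used. Each library was made from 25 PPL1-γ1pedc neurons of 3rd instar larvae at 120 h after egg laying, collected by hand as GFP-positive cell bodies from dissociated brains, with each library from a day of its own. The study itself asks how lowering Stromalin, a cohesin subunit, changes gene expression in these neurons, a comparison that is not made here. The control larvae carried the driver ΔTH-D'-GAL4, the reporter UAS-mCD8:GFP and UAS-dicer2, with no RNAi transgene, so that all 3 libraries share a Gal4 driver, a membrane-bound GFP and extra Dicer-2. The study describes the driver as active in few larval dopamine neurons. Cells were pooled over many brains, and the methods name no sex for these larvae.

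PPL1-γ1pedc neurons send their axons to the γ1 and peduncle compartments of the mushroom body, the learning center of the fly brain, where dopamine release writes aversive odor memories. Dopamine neurons make dopamine from tyrosine with tyrosine hydroxylase (ple) and Dopa decarboxylase (Ddc), load it into synaptic vesicles with Vmat and take it back up with DAT. Their firing is set by voltage-gated channels and by receptors for acetylcholine, GABA, glutamate, amines and peptides.

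A gene was called expressed in a library at 10 counts or more, where a count is a read assigned to that gene. Levels are in TPM, which is each gene's share of all counts after division by gene length, and they are given in the order control 1, control 2 and control 3. With 1 group of 3 libraries there is no contrast between groups, so that no p-value is given and the spread between libraries is shown by all 3 values. The libraries held 7790921, 9625056 and 8297822 counts in genes, of which rRNA genes took 30.3%, 16.6% and 18.9%. Of TPM they took 47.1%, 30.2% and 36.9%, so that TPM of all other genes were scaled down most in control 1. Spread and steadiness between libraries are given on this scale. A gene at 0 could still be present below 3 counts, that is, below 0.385, 0.312 and 0.362 CPM (counts scaled to the library total), which covers counting error only. Without rRNA the libraries held 5432848, 8031927 and 6732636 counts. Control 2 stood apart from the others in the number of genes found. It was also the library that held fat body transcripts, and counts without it are therefore given below.

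In control 1, 2535 genes were expressed, in control 2 4004 and in control 3 2298. A core of 1386 genes was expressed in all 3 libraries, which is 7.81% of the 17737 genes in the tables, and 4813 genes (27.1%) were expressed in any. Among 13872 protein-coding genes these shares were 9.72% (1349 genes) and 33.3% (4618 genes). Another 1252 genes were expressed in 2 libraries and 2175 in 1 library, of which control 2 held 1458. Without control 2, 1478 genes were expressed in both remaining libraries, without control 1 1880 genes and without control 3 2052 genes. Genes found in control 2 alone are outside the core with or without that library, so that leaving it out tests little. Genes seen in a single library were often not low there: 347 genes had 1000 counts or more in 1 library and 0 in the others, 76 of them in control 1, 193 in control 2 and 78 in control 3. In pools of this size a missing gene may reflect fewer neurons with the RNA, less RNA per neuron or RNA lost on the way to the library, and these cannot be told apart.

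The libraries agreed weakly across genes. Over the 5399 genes with a count in any library, Spearman's rho of TPM was 0.291 for control 1 and 2, 0.325 for control 1 and 3, and 0.271 for control 2 and 3, with genes as points that share library and length. Over the 1386 core genes it was 0.458, 0.306 and 0.385. Control 1 and 2 shared 2052 expressed genes, which is 80.9% of those of control 1 and 51.2% of those of control 2. Control 1 and 3 shared 1478 genes (58.3% and 64.3%), and control 2 and 3 shared 1880 genes (47.0% and 81.8%). Within the core, the highest library exceeded the lowest by a median of 7.17-fold in TPM over 1349 protein-coding genes (quartiles 3.07 and 23.7), with 142 genes within 2-fold and 574 genes, 42.6%, over 10-fold. The spread was smaller among abundant genes: 4.61-fold over the 700 core genes with a median TPM of 100 or more, and 2.09-fold over the 45 genes at 1000 or more.

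**Figure D1:**
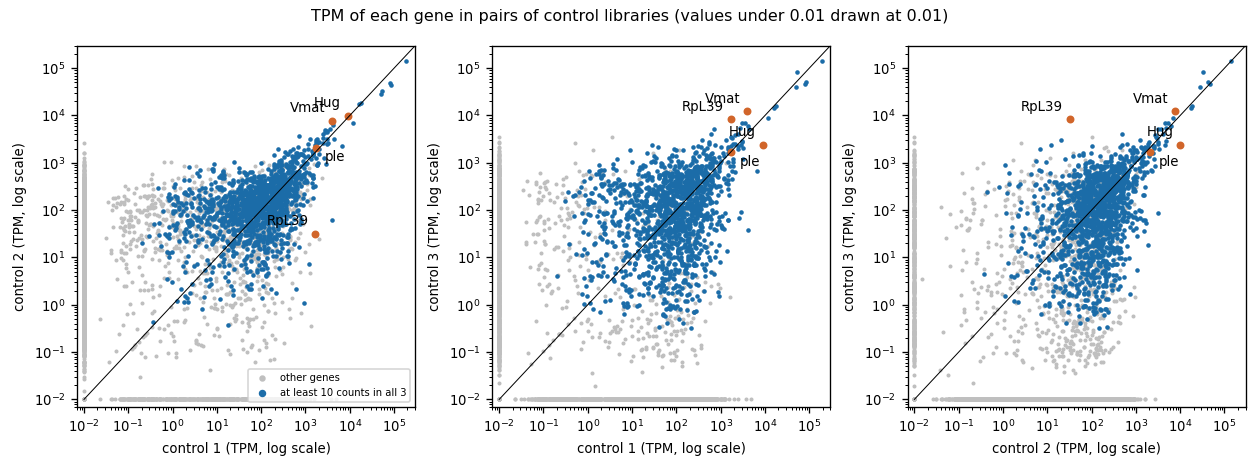
TPM of each of 5399 genes in each pair of control libraries, on log axes, with 1386 genes at 10 counts or more in all 3 libraries in blue and other genes in gray. Points near the axes are genes missing from a library, and RpL39 shows a highly expressed gene at 31.9 TPM in control 2 and 8237 TPM in control 3.

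Whether a gene found in a library was found again in another moved with its level, except at the lowest levels. Averaged over the 6 ordered pairs of libraries, 63.9% of expressed genes were found again. Under 1 TPM, with 40 to 44 genes in a library, this share was 57.5% and ran from 22.5% to 90.9% between pairs. It was 50.8% (28.2% to 75.0%) for genes at 1 to 10 TPM, 55.4% at 10 to 30 TPM, 63.9% at 30 to 100 TPM, 69.5% at 100 to 300 TPM, 74.8% at 300 to 1000 TPM and 85.9% (78.5% to 92.9%) at 1000 TPM or more. Detection also moved with gene length. Protein-coding genes were split into 5 classes of equal size by summed exon length, and the share expressed in all 3 libraries was 1.04% in the shortest class (152 to 902 bases), 1.55% in class 2, 3.68% in class 3 (1429 to 2121 bases), 8.90% in class 4 (2122 to 3453 bases) and 33.4% in the longest class (3455 to 71820 bases). Counts of list members below are therefore read against the share of the length class that holds the list's median exon length. Members shorter than the median can fall in classes of lower share, so that this share is a rough guide. For medians near 3455 bases, the lower end of the longest class, it can be too high.

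**Figure D2:**
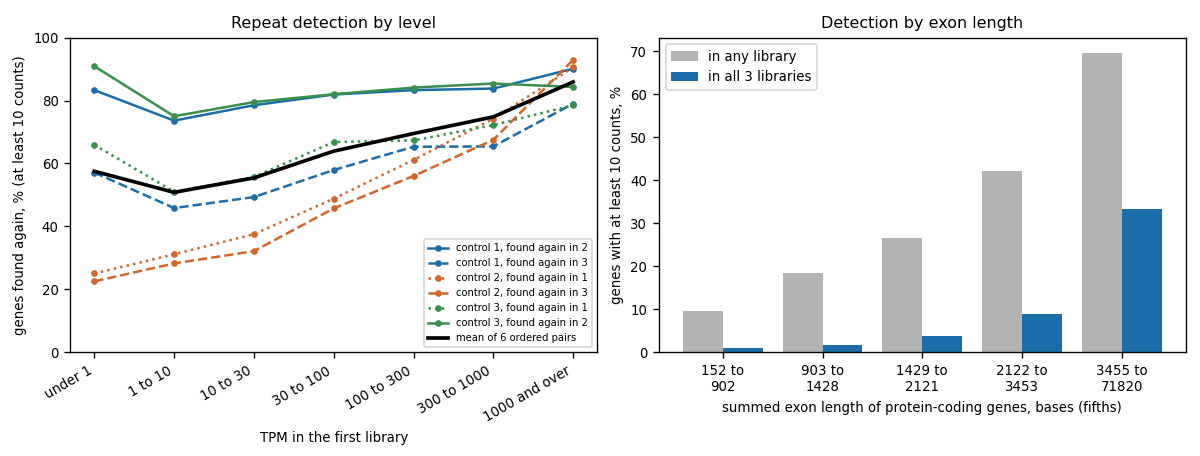
Left, share of expressed genes of a library that were found again in another, by TPM in the first library, for 6 ordered pairs and their mean, which is 57.5% under 1 TPM and rises from 50.8% at 1 to 10 TPM to 85.9% at 1000 TPM or more. Right, share of protein-coding genes expressed in any library and in all 3, by class of exon length, from 1.04% to 33.4% in all 3.

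Chromosome 4, a small chromosome rich in heterochromatin, had a higher share of expressed genes than the other arms. Of its 79 protein-coding genes, 32 (40.5%) were expressed in all 3 libraries, against 11.4% on X, 7.86% on 2L, 9.50% on 2R, 9.63% on 3L and 9.71% on 3R, and 0 of 23 on Y. With a median exon length of 4336 bases its genes are long. Within the longest class 25 of 49 (51.0%) were expressed, against 30.2% to 34.4% on the other arms. Over the shorter classes pooled, 7 of 30 (23.3%) were expressed, against 3.12% to 4.06%. Length was not matched further within either set of chromosome 4 genes. The most abundant were Cals, a calsyntenin of the postsynaptic membrane, at 617, 1039 and 1192 TPM, and PMCA, which pumps calcium out of the cell, at 796, 539 and 145 TPM. CaMKII, a kinase of synaptic plasticity, was held at 338, 402 and 177 TPM. These 3 genes were picked after their values were seen.

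The protein-coding gene of highest median TPM was Hug (FBgn0028374, chromosome 3R, 12526188 to 12529076 on the plus strand in BDGP6.54), which encodes the precursor of the neuropeptide hugin, known from a small set of neurons of the subesophageal zone. It was at 8942, 9929 and 2436 TPM, a mean of 7102 ± 4071 (SD, n = 3), ranking 1, 1 and 21 among protein-coding genes, so that control 3 lay below the others. Vmat, the vesicular monoamine transporter, ranked 2, 2 and 1, at 3929.8, 7779 and 12458 TPM. Its exons share 26.2% of their bases with CG13330 on the opposite strand, and whether counting used the strand is not stated in the methods or labels. CG13330 held 51, 4940 and 269 counts, against 98762, 199760 and 290322 counts for Vmat. Others of the listed and leading genes also share 10% or more of their exon bases with another gene. These were tipE, Shawl, Lcch3, SPR, Pal2, zfh2, da, Myc, gce, elav, Syx1A, unc-13 and Imp. Reads of the other gene could change their values, which was not tested. For tipE the other gene, CG18675, had 0 counts throughout, while for Syx1A it was eIF4EHP, with 311, 4176 and 2 counts. DAT, the dopamine transporter of the plasma membrane, was at 2729.7, 4817 and 5487 TPM. The ranges of neighbors overlapped for all 24 neighboring pairs of the leading 25 genes, so that their order is not resolved. All 25 were expressed in all 3 libraries, and together they held 13.6% to 14.5% of protein-coding TPM.

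Several of these leading genes work in vesicle release. IA-2, a membrane protein of dense-core vesicles, was at 2819, 4569.5 and 2429.8 TPM. The synaptobrevin nSyb, the vesicle protein of the fusion complex, was at 1681, 2431 and 2307 TPM. Rab3, a GTPase of synaptic vesicles, was at 237, 1925 and 2127 TPM and lay far lower in control 1. Vha16-1, the membrane ring of the proton pump that acidifies vesicles, was steadier at 1494, 1619 and 2168 TPM.

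Others serve the cell at large. The elongation factor eEF1alpha1 was at 3571, 5214 and 7004 TPM. Its paralog eEF1alpha2, which is used in neurons, was at 2454, 2566 and 2216 TPM and hardly varied. The adaptor 14-3-3zeta, which binds phosphorylated proteins, was at 3019, 3146 and 2781 TPM, and its relative 14-3-3epsilon was at 1684, 2793 and 3454 TPM. Cytoskeletal genes were among the leading 25. Act5C, an actin, was at 1774, 3049 and 3326 TPM. The tubulins alphaTub84B and betaTub56D were lowest in control 3, alphaTub84B at 2522, 3404 and 1984 TPM. For betaTub56D the levels were 2061, 1503 and 653 TPM. The profilin chic, which feeds actin growth, was lowest in control 1, at 533, 1985 and 2757 TPM. The catalytic subunit of the sodium pump, Atpalpha, was at 2073, 2749 and 3926 TPM. Its neuronal partner subunit nrv3 was at 1147, 2498 and 1595 TPM.

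Calmodulin, the calcium sensor encoded by Cam, was at 3205, 2559.9 and 1210.4 TPM. The mitochondrial ADP and ATP exchanger sesB was at 1852, 2637 and 847 TPM, and both were lowest in control 3. The small heat shock gene Hsp23 was at 3119.8, 2508 and 2062 TPM. RpL39, a short ribosomal protein gene of 288 bases, differed most among the leading 25, at 1679, 31.9 and 8237 TPM. CG2269 was at 3079.6, 4742 and 2844 TPM and is named only by its annotation number. The same is true of CG13928, at 413, 1504 and 1896 TPM. Dcr-2, the Dicer of the siRNA pathway, was at 1849.8, 3201 and 2485 TPM, and reads from the UAS-dicer2 transgene cannot be told apart from the gene's own. For white (w), a marker gene that fly transgenes carry, the same holds at 20, 422 and 596 counts.

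**Figure D3:**
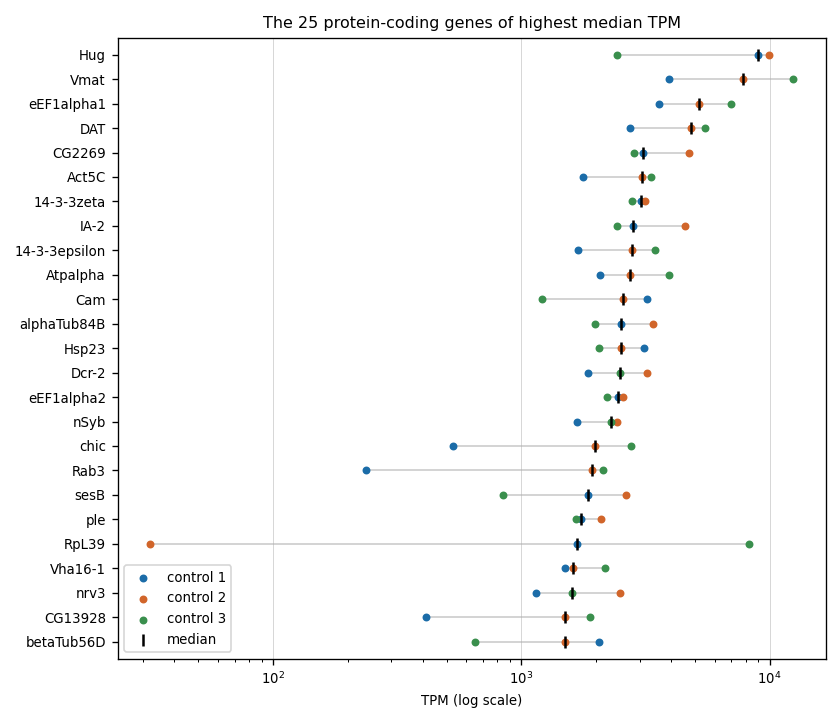
TPM of the 25 protein-coding genes of highest median TPM in each control library (colored points, log axis), with the median as a black bar. Vmat is at 3929.8, 7779 and 12458 TPM and 14-3-3zeta only 3019, 3146 and 2781 TPM, while RpL39, Rab3 and chic are low in a single library.

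Noncoding RNA genes were a small part of the core. Of 2474 other noncoding RNA genes 12 (0.485%) were expressed in all 3 libraries, of 288 snoRNA genes 4 (1.39%) and of 32 snRNA genes 1 (3.12%). Of 258 microRNA and 297 tRNA genes 0 were. These shares lie below the 7.81% of all genes. Protein-coding genes of the shortest length class had 1.04%, and noncoding genes were not matched by length. Among them snoRNA:Tudor-SN-a, a small nucleolar RNA hosted by a protein-coding gene, led at 3099, 4553 and 7104 TPM. RNaseMRP:RNA, of an enzyme that trims rRNA precursors, was at 4379, 3241 and 5214 TPM. RNaseP:RNA, of the enzyme that trims tRNA precursors, was at 1476, 1589 and 61.9 TPM. The RNA snRNA:7SK, which holds back a transcription elongation factor, varied, at 6757, 2266 and 658 TPM. The RNA CR42862 was at 1460.0, 1795 and 1040.1 TPM, and CR31451 was at 452, 1771 and 651 TPM. The RNA noe, named for its nervous system expression, was at 41.2, 635 and 494 TPM. CR43461 was at 1210.4, 556 and 0 TPM and CR40469 at 2411, 474 and 0 TPM, both with 0 counts in control 3. The dosage compensation RNA roX1 was at 199.5, 947 and 537 TPM, while roX2, its partner on the male X, had 0 counts in all 3 libraries. Mitochondrially encoded genes took 4.55%, 5.63% and 5.13% of TPM.

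The label of the cells was checked against markers. All 16 pan-neuronal genes were expressed in all 3 libraries, against 33.4% of their length class (median 8813 bases). Among them was elav, the neuronal RNA-binding protein, at 177, 212 and 516 TPM. The microtubule protein futsch was at 682, 1386 and 1089 TPM. The kinesin unc-104, which carries vesicles down the axon, was at 279, 1041 and 1658 TPM. Complexin (cpx), a clamp of vesicle fusion, was at 769.8, 1555 and 1038 TPM. The active zone scaffold brp was at 212, 545 and 680.0 TPM. Of 13 glial markers 0 were expressed in all 3 libraries, against 8.90% of their length class (median 3139 bases), so that this count alone is near the background. The markers repo and alrm, which define glia and astrocytes, were at 0 throughout. The glial list summed to 0.610, 340 and 5.49 TPM, of which nrv2 gave 339 TPM in control 2. Neuroblast and cycling markers summed to 553 TPM in control 2, with PCNA at 544 TPM and grh at 8.41 TPM, and to 0 in the others. Of 15 blood cell and fat body markers, 8 were expressed, all in control 2 alone, led by the larval serum protein Lsp1gamma at 708 TPM, and the list summed to 0.123, 1609.3 and 0 TPM. The part of these transcripts in the larger number of genes of control 2 was not tested. Of 5 markers of Kenyon cells, the main mushroom body neurons, 3 were in the core, and all 5 were expressed in some library. The share of their length class was 33.4% (median 4982 bases), so that 3 of 5 lay above the background. The RNA-binding protein mub was at 76.4, 285 and 238 TPM. The nuclear factor dac was at 1.75, 130.0 and 588 TPM, and Mef2 was at 159, 115 and 36.4 TPM. The Pax6 genes toy and ey were not in the core, toy at 0.083, 319 and 605 TPM and ey in control 1 only at 96.3 TPM. These markers are also used by other neurons, so that the list does not identify a cell type here.

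Of the genes that set the transmitter, those of dopamine alone were expressed in all 3 libraries, 4 of 19 transmitter genes (21.1%). These were also the 4 without control 2, while 5 were expressed without control 1 and 4 without control 3. The median exon length of the 19 genes, 3684 bases, lies near the lower end of the longest class. Their share lay below the 33.4% of that class and above the 9.72% of all protein-coding genes. Tyrosine hydroxylase, encoded by ple (FBgn0005626, chromosome 3L, 6713356 to 6719525 on the minus strand), was at 1739, 2100.1 and 1667 TPM, a mean of 1835 ± 232 (SD, n = 3), with the highest library within 1.26-fold of the lowest. The Gal4 driver holds a fragment of ple, so that transgene reads could add to these values, which was not tested. Cells were also picked by GFP under this driver, so that ple is not independent of how they were chosen. Ddc, the second enzyme of synthesis, was at 46.1, 75.0 and 994 TPM, so that control 3 lay far above the others. Pu, the GTP cyclohydrolase that makes the cofactor of tyrosine hydroxylase, was at 0, 149 and 2.43 TPM, and pr, the next enzyme of that cofactor, had 0 counts. Genes for other transmitters were mostly at 0 counts in all 3 libraries: ChAT, VAChT and ChT for acetylcholine, Gad1 and Gat for GABA, VGlut for glutamate, Tdc1 and Tdc2 for tyramine, Trhn and SerT for serotonin and Hdc for histamine. The exceptions were VGAT, the vesicular GABA transporter, at 13.4 TPM in control 1, and Tbh, which makes octopamine, at 55.7 TPM in control 3.

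**Figure D4:**
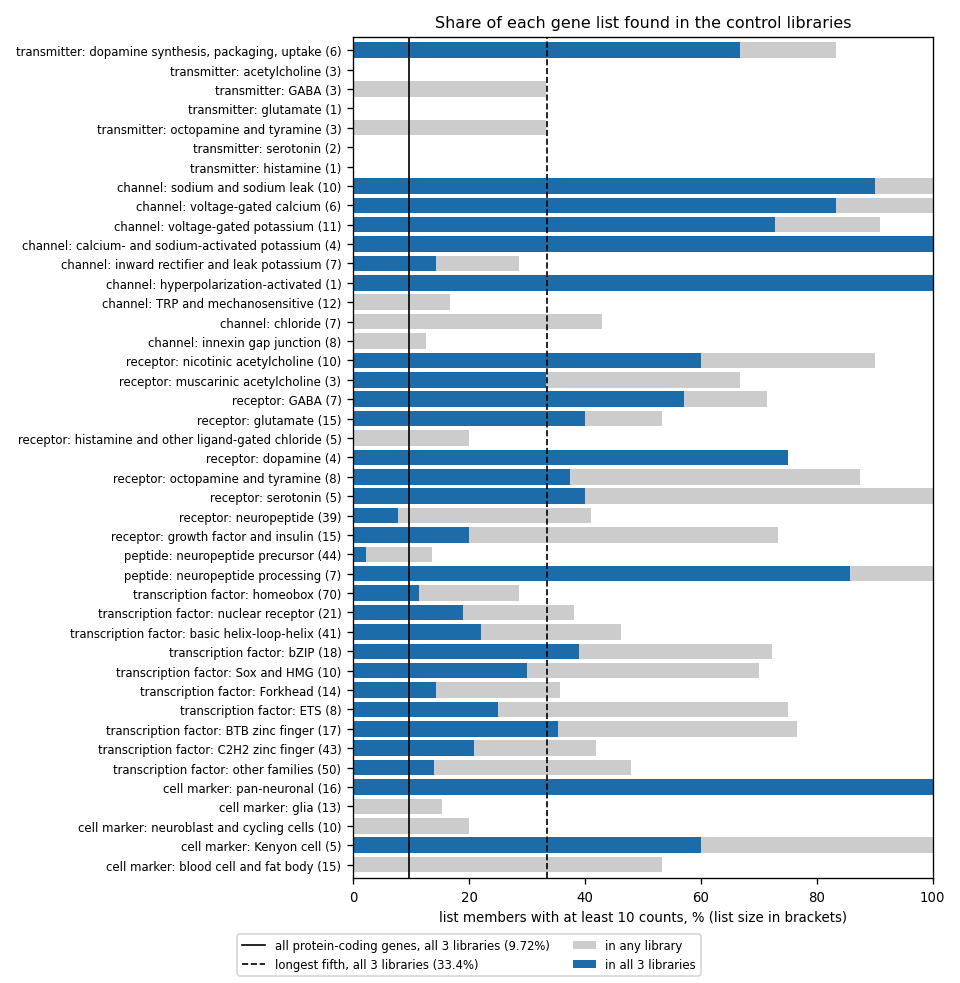
Share of the members of each gene list with at least 10 counts in all 3 control libraries (blue) and in any (gray), list size in brackets, with lines at 9.72% for all protein-coding genes and 33.4% for the longest class. Dopamine, sodium, calcium and voltage-gated potassium channel, nicotinic receptor and peptide processing lists lie right of both lines, and other transmitters, TRP channels, innexins and glial markers have no member in all 3. For innexins and glial markers the length class shares are 3.68% and 8.90%, so that their counts are near the background.

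Of 66 ion channel and channel subunit genes, 28 (42.4%) were expressed in all 3 libraries, also 28 without control 2. Without control 1 there were 29 and without control 3 30. The median exon length of the 66 genes, 4769 bases, falls in the longest class, where 33.4% of all genes were expressed. All but Teh3 of 10 sodium channel and sodium leak genes were in the core. The sodium channel of the action potential, para, was at 274, 623 and 315 TPM. Its partner subunit tipE was at 154, 71.0 and 258 TPM. The related subunits Teh1, Teh2 and Teh4 were also found in every library. Teh1 was at 40.1, 83.3 and 150.0 TPM, Teh2 at 99.8, 246 and 119 TPM, and Teh4 varied most, at 5.45, 243 and 59.2 TPM. Teh3 was found in control 2 only, at 26.6 TPM. NaCP60E, a relative of para, was at 68.0, 103 and 52.7 TPM. The sodium leak channel na, which keeps neurons depolarized, was at 71.8, 111 and 431 TPM. Of 2 proteins that work with it, unc79 was at 118, 350.4 and 53.0 TPM. The other, unc80, was at 229, 167 and 73.8 TPM.

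Of 6 calcium channel genes 5 were in the core. The presynaptic channel cac was at 163, 382 and 187 TPM. Ca-alpha1D, the L-type channel, was lower at 66.8, 53.1 and 42.4 TPM, with ranges that do not overlap. The T-type channel Ca-alpha1T was at 0, 33.0 and 0.159 TPM, with 10 counts or more in control 2 only. Their auxiliary subunits were all present. Ca-beta was at 80.9, 98.2 and 251 TPM. The alpha2-delta subunit stol was at 82.6, 109 and 36.4 TPM, and stj, of the same kind, was at 80.4, 37.7 and 526 TPM, high in control 3.

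Of 11 voltage-gated potassium channel genes 8 were in the core. Shab, a delayed rectifier, was the steadiest at 315, 277 and 274 TPM. The fast A-type channel Sh was nearly as steady at 187, 238 and 221 TPM. Shal, the A-type channel of the cell body and dendrites, was at 257, 269 and 166 TPM. Shaw was at 194, 257 and 44.7 TPM and lowest in control 3. The Sh modulator qvr, also called sleepless, had the highest median of all channel genes, at 238, 345 and 536 TPM. Its levels overlap those of Shab, so that the order is not resolved. The potassium channel beta subunit Hk was at 112, 95.98 and 195 TPM.

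Potassium channels opened by calcium or sodium were all in the core. The large-conductance channel slo was at 58.7, 247 and 635 TPM. SK, the small-conductance channel, was at 203, 72.4 and 618 TPM. Here slo was lowest in control 1 and SK in control 2. The sodium-activated SLO2 was at 23.4, 30.6 and 1.74 TPM. The slo-binding protein Slob hardly varied, at 39.9, 43.1 and 48.2 TPM. Task6, an acid-sensitive leak channel, was at 199, 260.2 and 380.0 TPM and was the only core gene of 7 inward rectifier and leak channels (14.3%). The class share of these 7 genes was 8.90% (median 2497 bases), so that this count is near the background. Ih, the cation channel opened by hyperpolarization, was at 105, 153 and 229.9 TPM.

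Other channel families had no member in the core. Their class shares were 33.4% for TRP and mechanosensitive channels (median 4097 bases) and 8.90% for chloride channels (3314 bases). For innexins the class share was 3.68% (2058 bases). The counts of chloride channels and innexins are therefore near the background. Of 12 TRP and mechanosensitive channels, Piezo reached 10 counts in controls 1 and 2, at 8.90 and 46.7 TPM, and Tmc in control 2. Of 7 chloride channels, ClC-c was at 0, 57.6 and 198 TPM. Of 8 innexins, which form gap junctions, only shakB reached 10 counts, with 83 counts in control 1, and the other 7 were at 0 counts in all 3 libraries.

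Of 111 receptor genes, 31 (27.9%) were expressed in all 3 libraries, at a median exon length of 3815 bases, in the longest class (33.4%). Without control 2 there were also 31, without control 1 38 and without control 3 39. The share in all 3 libraries was 75.0% for dopamine, 57.1% for GABA, 40.0% for glutamate and 40.0% for serotonin receptors. It was 37.5% for octopamine and tyramine receptors and 33.3% for muscarinic receptors. It was 7.69% for neuropeptide receptors, and 3 of 15 growth factor and insulin receptors were in the core. Histamine and other ligand-gated chloride receptors gave 0 of 5, against a class share of 8.90% (median 2249 bases). Of these, pHCl-1 was at 26.3, 108 and 0 TPM and the others were at 0 counts. Of 10 nicotinic acetylcholine receptor subunits, which form the main excitatory receptor of the fly brain, 6 were in the core. The highest, nAChRalpha6, was at 301, 701 and 331 TPM. The subunit nAChRalpha5 was at 118, 237 and 349 TPM, and nAChRalpha3 was steady at 106, 103 and 89.2 TPM. Control 3 was lowest for nAChRalpha1, at 68.1, 118 and 22.2 TPM. For nAChRalpha7 the levels were 50.0, 193 and 0.604 TPM and for nAChRbeta2 6.04, 53.4 and 2.69 TPM, so that control 2 stood above the others. The subunit nAChRbeta1 was at 241, 250.0 and 0 TPM, with 0 counts in control 3. Of the others, nAChRalpha4 was at 0.374, 81.6 and 5.54 TPM, nAChRalpha2 at 0, 16.5 and 0 TPM and nAChRbeta3 at 0, 0 and 0 TPM. The muscarinic receptor mAChR-A was at 200.2, 205 and 51.7 TPM. Its relative mAChR-B was found in control 2 only, and mAChR-C had 0 counts.

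Rdl, the GABA-gated chloride channel, had the highest median of all receptor genes, at 412, 869 and 399.8 TPM. Lcch3, another GABA receptor subunit, was at 61.6, 202 and 5.14 TPM. The metabotropic receptor GABA-B-R2 was at 245, 163 and 10.9 TPM. Its obligate partner GABA-B-R1 was at 0.057, 142 and 0 TPM, with 1 count in control 1 and 0 in control 3. GABA-B-R3 was at 29.5, 179.7 and 216 TPM.

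Glutamate receptors of both signs were found. GluClalpha, the inhibitory glutamate-gated chloride channel, was at 84.1, 307 and 354 TPM. The NMDA receptor subunit Nmdar2 was steady at 358, 306 and 255 TPM. Its partner Nmdar1 was at 2.17, 205 and 179 TPM, from 28 counts in control 1. The AMPA-type subunit GluRIA was lowest in control 3, at 455, 382 and 7.15 TPM. GluRIB, of the same type, was at 10.1, 313 and 76.4 TPM. The kainate-type subunit KaiR1D was lowest in control 1, at 5.29, 297 and 214 TPM.

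Dopamine receptors were expressed except Dop1R2, which had 0 counts in all 3 libraries. The inhibitory receptor Dop2R was at 243, 493 and 30.8 TPM. DopEcR, which binds dopamine and ecdysone, was at 259.9, 474 and 184 TPM. The stimulatory Dop1R1 was at 6.93, 141 and 146 TPM. All levels of DopEcR lay above those of Dop1R1, and Dop2R overlapped both.

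Among octopamine and tyramine receptors 3 of 8 were in the core. Octbeta2R, which raises cAMP, was high in control 1 only, at 253, 5.94 and 6.87 TPM. Octalpha2R was at 26.7, 145 and 80.4 TPM. The tyramine receptor TyrR was low at 12.7, 11.0 and 0.954 TPM. Oamb, an octopamine receptor that raises calcium, was at 0, 152 and 81.0 TPM. Octbeta1R was at 83.8, 12.0 and 0 TPM. Oct-TyrR and Octbeta3R reached 10 counts in control 2 only. Of serotonin receptors, 5-HT2B was at 136, 195 and 302 TPM. The inhibitory 5-HT1A was at 51.4, 313 and 14.95 TPM, and 5-HT7, which raises cAMP, was at 0.361, 197 and 8.95 TPM. Both were highest in control 2, and 5-HT2A and 5-HT1B reached 10 counts there only.

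Neuropeptide receptors had 3 of 39 members (7.69%) in the core and 16 in any library. Their median exon length of 3182 bases falls in class 4, with 8.90% of all genes expressed. SPR, the sex peptide and myoinhibitory peptide receptor, was the steadiest at 99.3, 106 and 142 TPM. CCHa2-R, a receptor of the peptide CCHamide-2, was at 131, 76.6 and 38.4 TPM. The diuretic hormone 31 receptor Dh31-R was lowest in control 1, at 10.9, 278 and 224 TPM. Among growth factor and insulin receptors, the receptor tyrosine kinase Alk was at 67.6, 239 and 311 TPM. InR, the insulin receptor, was at 218, 54.6 and 244 TPM. The activin receptor babo was at 40.4, 82.1 and 562 TPM, high in control 3.

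**Figure D5:**
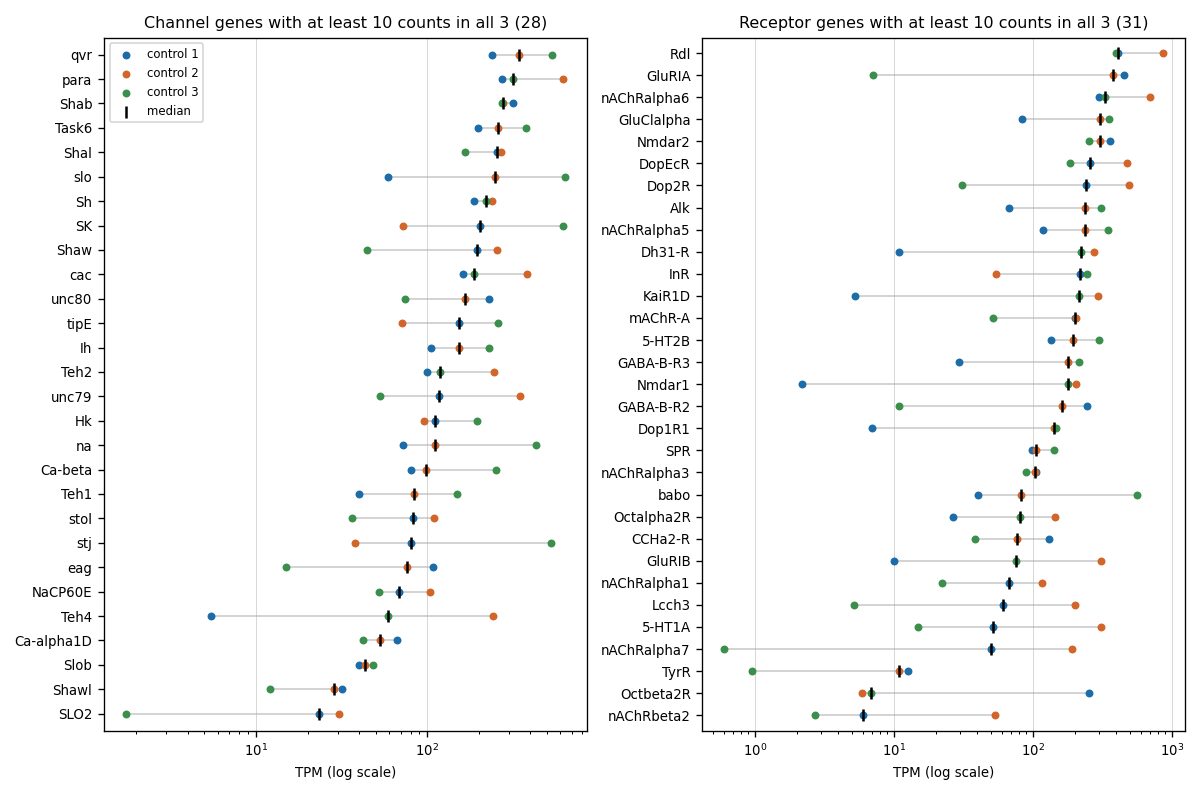
TPM of the 28 channel genes (left) and 31 receptor genes (right) with at least 10 counts in all 3 control libraries, each library as a colored point on a log axis with the median as a black bar. Shab and Slob vary little, while Nmdar1 is at 2.17 TPM in control 1 and 205 TPM in control 2.

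Most peptide processing genes were found, while the core share of peptide precursors was near that of their length class. Of 44 neuropeptide precursor genes, Hug alone was expressed in all 3 libraries (2.27%), at a median length of 830 bases, where 1.04% of genes of the shortest class were expressed. Nplp1, another precursor, was at 0, 273 and 91.8 TPM. Proc, the proctolin precursor, was found in control 1 only, at 325 TPM. CCAP and ITP, precursors of cardioactive and ion transport peptides, were found in control 2 only, at 213 and 58.8 TPM. In all, 38 precursors were at 0 counts in every library, and 6 (13.6%) were expressed in any library, against 9.65% of the shortest class. Of 7 genes that process peptides or prime their vesicles, 6 were in the core, against 8.90% of their length class (median 2992 bases). The prohormone convertase amon was at 1501, 559.8 and 428 TPM. Its helper 7B2 was at 1487, 476 and 278 TPM, and both were highest in control 1. The amidating enzyme Phm was at 4.24, 692 and 716 TPM, from 21 counts in control 1. Pal2, which completes amidation, was at 936, 386 and 682 TPM. The carboxypeptidase svr was at 219.6, 412 and 119 TPM. Cadps, which primes dense-core vesicles, was highest in control 2, at 12.7, 564 and 90.3 TPM. Exons of Pal2 share 25.7% of their bases with CG30183 on the opposite strand, which held 76, 14 and 4930 counts.

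Of 292 transcription factor genes, 57 (19.5%) were expressed in all 3 libraries and 133 in any. In both remaining libraries 58 were expressed without control 2, 68 without control 1 and 77 without control 3. The median exon length of the 292 genes was 3531 bases, at the lower end of the longest class (33.4%), next to class 4 (8.90%). Homeobox genes made up 8 of 70 (11.4%, median 3097 bases, class share 8.90%). The LIM-homeobox gene ap, which also marks dorsal wing identity, was at 101, 363 and 448 TPM. The repressor dve was at 341, 218 and 80.7 TPM. A cofactor of Hox proteins, hth, was at 217, 148 and 0.324 TPM. The zinc finger and homeobox repressor zfh1 was at 181, 142 and 23.6 TPM, and onecut was at 71.4, 227 and 96.8 TPM. The gene otp, known from neurosecretory neurons, was at 80.4, 62.8 and 1465 TPM. In control 3, hth was far below and otp far above the other libraries.

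Of 21 nuclear receptors 4 (19.0%) were in the core, between the 8.90% of class 4 and the 33.4% of their length class (median 3909 bases). Hr38, which neurons induce on activity, was at 213, 157 and 263 TPM. The ecdysone-induced Eip75B was at 88.3, 123 and 19.8 TPM. The ecdysone receptor EcR itself was highest in control 2, at 14.2, 284 and 25.4 TPM. Hr39 was at 0.844, 12.6 and 61.1 TPM.

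Of 41 basic helix-loop-helix genes 9 (22.0%) were in the core, above the 8.90% of their length class (median 2335 bases). The inhibitor emc, which lacks a DNA-binding region, was at 34.8, 274 and 1271 TPM. Myc, the growth regulator, was at 26.2, 90.3 and 230.0 TPM, and its exons overlap CG12535 on the opposite strand over 40.9% of their bases, with 0 counts in CG12535. The ecdysone receptor coactivator tai was at 151, 89.9 and 46.2 TPM, and crp was at 89.2, 271 and 40.6 TPM. The juvenile hormone receptor gce was near absent from control 3, at 65.7, 89.4 and 0.841 TPM. Also in the core was dimm, which promotes the peptide-secreting state of neurons, at 391, 26.6 and 61.9 TPM, highest in control 1.

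The bZIP family had 7 of 18 members in the core (38.9%), near the 33.4% of its length class (median 3788 bases). REPTOR, which acts when TOR signaling is low, was at 98.2, 215 and 386 TPM. The stress-induced Atf3 was at 90.8, 206 and 525 TPM. Xbp1, a factor of the unfolded protein response, was at 25.2, 66.1 and 106 TPM. The antioxidant response factor cnc was at 48.3, 98.4 and 59.0 TPM. Pdp1, which also takes part in the circadian clock, was at 71.0, 46.0 and 0.978 TPM.

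Zinc finger genes in the core were 6 of 17 BTB factors (35.3%) and 9 of 43 C2H2 factors (20.9%), both with medians in the longest class (33.4%). The ecdysone response gene br was steady at 197, 155 and 208 TPM. The short BTB protein lolal was at 104.3, 197 and 254 TPM, and the Polycomb-linked psq was at 51.6, 215 and 414 TPM. The patterning gene bab2 was at 216, 125 and 80.7 TPM. Chinmo, a factor of neuron birth order encoded by chinmo, was at 54.9, 328 and 120.1 TPM. Among C2H2 genes l(3)neo38 was highest, at 442, 275 and 726 TPM. The neural repressor chn was at 493, 39.5 and 284 TPM. Another neural gene, scrt, was at 75.1, 266 and 367 TPM. The activity-induced sr, related to mammalian Egr, was lowest in control 3, at 273, 234 and 16.1 TPM. The pioneer factor zld of the early embryo was at 7.26, 164 and 258 TPM.

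Smaller families gave 2 of 8 ETS genes, 3 of 10 Sox and HMG genes and 2 of 14 Forkhead genes, with class shares of 33.4%, 33.4% and 8.90%. The ETS gene Eip74EF, an ecdysone response gene, was at 294, 359 and 89.6 TPM. Ets65A was at 28.3, 131 and 510.4 TPM. The HMG repressor cic, relieved by receptor tyrosine kinase signaling, was at 57.8, 79.5 and 170.4 TPM. The Wnt pathway factor pan was at 40.2, 221 and 0.339 TPM, near absent from control 3. SoxN, a gene of the early nervous system, was low at 24.0, 31.8 and 2.86 TPM. Of Forkhead genes, FoxK was at 2.29, 59.1 and 83.5 TPM and CHES-1-like at 61.2, 27.0 and 0.419 TPM. Of the remaining families 7 of 50 were in the core, below the 33.4% of their length class (median 3594 bases). Stat92E of the JAK/STAT pathway was at 263, 239 and 58.8 TPM. The activin pathway factor Smox was at 612, 175 and 20.5 TPM, highest in control 1. The DNA-binding partner of the Hippo pathway, sd, was at 45.0, 124 and 123 TPM. Levels of dac and Mef2 are given above.

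Of 56 adhesion and surface genes 23 (41.1%) were in the core, at a median length of 4815 bases (longest class, 33.4%). The fasciclin Fas1 was at 459, 823 and 1224 TPM. Fas2, which joins axons to each other, was among the steadiest genes at 683, 616 and 556 TPM. Dscam4, an immunoglobulin cell adhesion gene, was at 87.2, 516 and 751 TPM. Neuroglian, encoded by Nrg, was at 310.3, 346 and 243 TPM. Ten-a, a teneurin that matches synaptic partners, was at 163, 198 and 211 TPM.

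Genes that respond to stress or activity were also measured, since the cells were dissociated before picking. Of 15 heat shock genes 8 (53.3%) were in the core, against 8.90% of their length class (median 2347 bases). Besides Hsp23, the constitutive chaperone Hsc70-4 was at 499, 1386 and 2062 TPM. Its relative of the endoplasmic reticulum, Hsc70-3, was at 655, 1331 and 1282 TPM. The Hsp90 gene Hsp83 was at 854, 1543 and 209 TPM. Hsp26 was highest in control 1, at 1446, 178 and 350.1 TPM. Hsp70 genes are near-identical copies, so that reads may be split between them, and Hsp70Ab was at 84.5, 416 and 3.67 TPM.

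Of 8 activity-regulated genes 7 (87.5%) were in the core, against 33.4% of their length class (median 6010 bases). CG14186 was at 118, 529 and 921 TPM, and Hr38 and sr are given above. The fly Fos, kay, was at 44.5, 109.9 and 42.8 TPM. The fly Jun, Jra, was at 0, 155 and 43.6 TPM, with 0 counts in control 1. CrebB, the CREB factor of long-term memory, was at 29.2, 38.4 and 3.71 TPM. The phosphatase puc, induced by JNK signaling, was low in control 2 and high in control 3, at 110.3, 5.69 and 1106 TPM. What part dissection had in these levels was not tested.

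Core complexes were grouped by gene symbol after values were seen. Of 92 cytosolic ribosomal protein genes 39 (42.4%) were in the core and 81 in any library, against 1.04% in the core for their length class (median 901 bases). RpLP0, a subunit of the ribosomal stalk, was at 1472, 1477 and 1591 TPM. Of 73 mitochondrial ribosomal protein genes 0 were in the core and 13 in any library, with the same class share of 1.04% (median 783 bases). Nuclear genes of oxidative phosphorylation gave 7 of 80 (8.75%, class share 1.04%), with the ATP synthase subunit ATPsynC at 646, 1606 and 925 TPM. Proteasome genes gave 3 of 32 (9.38%, class share 1.55%), while 28 were expressed in any library. Vacuolar proton pump genes gave 9 of 33 (27.3%) and Rab GTPases 11 of 30 (36.7%), each against a class share of 3.68%. Kinesins gave 4 of 17 (23.5%), between the 8.90% of class 4 and their class share of 33.4% (median 3718 bases). Aminoacyl-tRNA synthetases gave 2 of 33 (6.06%), near their class share of 8.90%, and 22 were expressed in any library.

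The steadiest genes among the 200 of highest median TPM were led by tnc, an extracellular matrix protein, at 379.8, 405 and 412 TPM, with a coefficient of variation of 0.0419. This ranking holds for TPM with rRNA included, and spread without rRNA was not computed. For tnc the counts were 12261, 13345 and 12322, of 5432848, 8031927 and 6732636 counts without rRNA. CG31140 was at 524, 552 and 572 TPM. RpLP0, 14-3-3zeta, eEF1alpha2 and Fas2, given above, were among the 10 steadiest. The chaperone calreticulin, Calr, was at 475, 419.7 and 467 TPM. The protein kinase A subunit Pka-R1 was at 501, 582 and 528 TPM. Talin, the integrin linker encoded by rhea, was at 449, 512 and 550.4 TPM. The kinase Hipk closed the 10, at 391, 325 and 403 TPM and a coefficient of 0.113.

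At the other end stood genes of high level in 1 library and 0 counts in the others. In control 1, the spliceosomal RNA snRNA:U2:34ABa, of a family of near-identical copies, reached 4839.7 TPM. CG9344 reached 3713 TPM in the same library, and dj-1beta, an antioxidant gene, reached 1554 TPM from 3519 counts. In control 3, CG13031 reached 3568 TPM and CycC, a cyclin of the Mediator complex, 2696 TPM. CG2911 and CG32278 followed there with 2617 and 1768 TPM. The short RNA genes mir-4965, mir-2a-1 and snoRNA:Psi18S-1086 reached 2636, 1629.6 and 1603 TPM in control 2, from 724, 391 and 749 counts. Stromalin's own gene SA belonged to the same kind, with 0, 0 and 1372 counts.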

How the data were processed

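RNA-seq of 3 control libraries of 25 hand-picked neurons each was used, grouped by genotype as labeled, and the 3 Stromalin KD libraries were not used. The authors deposited raw counts per gene for 17737 genes. They also deposited TPM per library, which equal counts over gene length within 0.00155% and include rRNA genes. Their normalized counts and comparison results (fold changes, p-values) were not used. The processing notes name HTSeq 0.9.1, DESeq2 and BDGP6. The aligner, annotation release, strand setting and handling of molecular identifiers are named in none of the labels, headers or methods used.

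Names, classes, exon lengths and coordinates came from Ensembl release 115 (BDGP6.54), with 17599 genes matched by identifier, 51 by symbol and 87 not matched. Gene lists, 46 in number, held 662 genes, of which 660 matched. The libraries and lists were chosen with earlier results of these data known. Genes named were drawn from the 25 protein-coding and 10 noncoding genes of highest median TPM, the 5 leading core genes of each list and all of lists of 10 or fewer, the 10 steadiest of the leading 200, the 10 of highest TPM in 1 library with 0 elsewhere, other cell types' markers, and ple, elav, Dcr-2, w and SA. Others were picked after values were seen. Steps ran in Python 3.11.15 with pandas 2.3.3, numpy 2.4.6 and scipy 1.17.1 and were tested on simulated data. Alternatives were other count and TPM limits, other correlation measures, other ways to rank and leaving out each library. Of 206 genes checked, 14 share 10% or more of their exon bases with another gene.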

Additional observations from a re-analysis of the deposited data

How the results depend on the processing

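Of 61 alternatives, 54 stayed within 1.5 times of the count, or within 1 SD between library pairs of the value, given in the report. These limits are wide. Expressed genes without control 3, 2052 against 1386, still fell within them, as did 46 receptor genes in at least 2 libraries, against 31. Asking for 10 counts in at least 2 libraries raised the number of expressed genes to 2638 and of expressed transcription factors to 89. The mean Spearman's rho over pairs, 0.296, became 0.339 as Pearson's r of log2(TPM + 1), 0.383 over core genes and 0.390 for CPM without rRNA, and ran from 0.271 to 0.325 with 1 library left out. Of the leading 25 genes, 15 stayed when genes were ranked by CPM without rRNA, which is not divided by length. The cause of the other shifts was not tested. No paired analysis was possible because only 1 group was described. The floor of 3 counts per library for a gene at 0 covers counting error only. A 0 in 1 library does not bound a gene's expression in these neurons. For 347 genes, 1 library held 1000 counts or more and the others held 0.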

Other observations

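RNA-binding proteins that time neuron development, picked after their values were seen, were unequal. Imp, an early factor of neuron lineages, was at 162, 340.0 and 236 TPM, while Syp, which follows it, had 0 counts in all 3 libraries over 11225 exon bases, and lin-28 had 0 counts as well. The translational repressor brat was at 88.3, 307 and 343 TPM. The BTB factor mamo held only 0, 50 and 155 counts. The long stress RNA Hsromega was at 406, 616 and 409.8 TPM, with its libraries within 1.52-fold of each other. The neprilysin gene Nep1 was at 78.1, 12.1 and 0 TPM.

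Ranked by CPM (counts scaled to the library total) without rRNA in place of TPM, the leading genes were Vmat with a median of 24871, IA-2 with 16446 and the nuclear anchor Msp300 with 14213 CPM, followed by futsch with 10802 CPM. CPM is not divided by gene length.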
